A study of Rattus norvegicus with 9 samples.

Results

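Interferon-stimulated genes and the regulators that control them were followed in the rat spinal cord as a set of 41 genes, chosen by name and each found once among the 36051 genes of the deposited count table. RNA was sequenced from the cord of 3 injured and treated samples (SCI_ALA), 3 injured and vehicle-treated samples (SCI_Veh) and 3 uninjured samples (sham), all of wild-type genotype and all taken on day 3, at 13857771 to 15736132 counts per library. SCI_ALA cords had a thoracic impact contusion and received α-lipoic acid, an antioxidant cofactor of mitochondrial enzymes. SCI_Veh cords had the same contusion and received normal saline, and sham cords came from rats without the contusion. Strain, sex, age and the dose of α-lipoic acid are not given in the sources used here, and neither is whether the 3 samples of a group came from separate animals, so the p-values measure the spread between these samples.

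Type I interferons are secreted proteins that bind a receptor made of the IFNAR1 and IFNAR2 chains. The receptor activates STAT2, which joins IRF9 in a complex that binds the interferon-stimulated response element in the promoters of target genes. The targets encode antiviral enzymes, sensors of foreign nucleic acid and feedback inhibitors, and in the nervous system microglia, astrocytes, endothelium, neurons and infiltrating leukocytes can all switch them on. Interferon regulatory factors (IRFs) act both upstream, by inducing the interferon genes, and downstream, as induced genes themselves.

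Sequence around the transcription starts was examined first, because the complex of STAT2 and IRF9 acts on its target genes through a promoter element. RefSeq promoters (build GRCr8, from 250 bases before to 50 bases after the start) were matched for 31 of the 41 genes; Ddx58, Dhx58, Zbp1, Adar, Isg15, Usp18, Ifit1, Ifit2, Mx2 and Oas2 had no entry. The core of the interferon-stimulated response element, searched on both strands as GAAA, any 2 bases and GAAA again, was present in 16 of these 31 promoters (51.6%), against 1312 of all 33469 promoters of the same length (3.92%). The gamma-activated site bound by STAT dimers, searched as TTCNNNGAA on both strands, was present in 8 of 31 (25.8%), against 8.87% of all promoters. Both patterns overlapped each other in the Bst2 promoter. These are matches of letters, given as a description, and not measurements of binding.

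Among the genes with lower RNA in SCI_Veh than in sham, as given below, 8 of the 10 with a promoter entry held this core, and in 8 of these 10 it also lay within the 150 bases before the start. Windows of 80 bases from 6 of them are shown 5′ to 3′ on the strand of the gene, with matches of either pattern in capitals. TTTC, any 2 bases and TTTC is the same core read on the other strand, and Oas1a has 2 matches that overlap each other. Outside the windows lie a second match of the core in Ifi27 and in Ifi44 and a match of TTCNNNGAA in Oas1a and in Ifi44l.
Oas1a, chr12:41330396-41330475, plus strand: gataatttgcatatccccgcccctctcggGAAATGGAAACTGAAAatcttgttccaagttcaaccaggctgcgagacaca
Ifi44, chr2:243303822-243303901, minus strand: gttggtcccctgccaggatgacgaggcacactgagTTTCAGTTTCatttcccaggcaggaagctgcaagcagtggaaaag
Ifi44l, chr2:243328629-243328708, plus strand: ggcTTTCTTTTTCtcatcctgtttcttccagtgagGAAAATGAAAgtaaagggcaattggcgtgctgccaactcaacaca
Ifi27, chr6:128355193-128355272, plus strand: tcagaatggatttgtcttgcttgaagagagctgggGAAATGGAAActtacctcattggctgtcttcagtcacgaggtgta
Irf7, chr1:205800048-205800127, minus strand: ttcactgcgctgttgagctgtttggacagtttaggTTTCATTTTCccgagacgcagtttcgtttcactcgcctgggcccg
Eif2ak2, chr6:21941103-21941182, plus strand: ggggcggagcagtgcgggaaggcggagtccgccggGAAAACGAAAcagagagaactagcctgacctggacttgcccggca
Among the genes with higher RNA in SCI_Veh than in sham, 0 of 6 promoters held the response element core and 3 of 6 held TTCNNNGAA. Within the 150 bases before the start, TTCNNNGAA was in 1 of these 6. Of the 10 promoters of lower genes, 3 held TTCNNNGAA, and 1 held it within those 150 bases. The windows of Irf8 and Irf1 are shown because these 2 transcription factor genes carried the gamma-activated pattern in capitals.
Irf8, chr19:65699088-65699167, plus strand: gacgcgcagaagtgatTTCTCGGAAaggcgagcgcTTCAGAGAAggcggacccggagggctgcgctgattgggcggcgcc
Irf1, chr10:38417758-38417837, plus strand: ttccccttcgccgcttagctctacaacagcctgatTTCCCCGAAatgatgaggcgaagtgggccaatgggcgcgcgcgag
Genes that did not pass the test in SCI_Veh against sham held the core in 8 of 15 promoters, so the element was also present where no change was called. Gbp2, a guanylate-binding protein gene, is shown as one of them.
Gbp2, chr2:234005661-234005740, plus strand: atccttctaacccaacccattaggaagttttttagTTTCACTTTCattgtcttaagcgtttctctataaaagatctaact

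Before the comparisons, the libraries were compared with each other, since the sham libraries differed widely in this gene set. Levels are CPM, counts scaled to library size with TMM (trimmed mean of M-values) factors, and log2 CPM was averaged over the 41 genes as a description. The mean was 4.44, 4.58 and 5.10 in SCI_ALA 1, 2 and 3, then 5.14, 4.73 and 4.88 in SCI_Veh 1, 2 and 3, against 6.08, 4.89 and 5.34 in sham 1, 2 and 3. Sham 1 was the highest of the 9 libraries for 29 of the 41 genes (70.7%), whereas it was the highest for 2171 of all 16678 genes tested. Against the average of the other sham libraries, the mean of sham 1 differed by 0.9642, that of sham 2 by -0.8174 and that of sham 3 by -0.1468. Sham 2 was the lowest sham library for 34 of the 41. Its level was above all 6 injured libraries for 10 genes, within their range for 17 and below all of them for 14; over all genes tested the shares were 33.2%, 33.3% and 33.5%. For sham 1 these counts were 30, 7 and 4, against 31.0%, 37.6% and 31.4% of all genes tested, and for sham 3 they were 20, 14 and 7, against 30.6%, 36.9% and 32.4%.

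**Figure D1:**
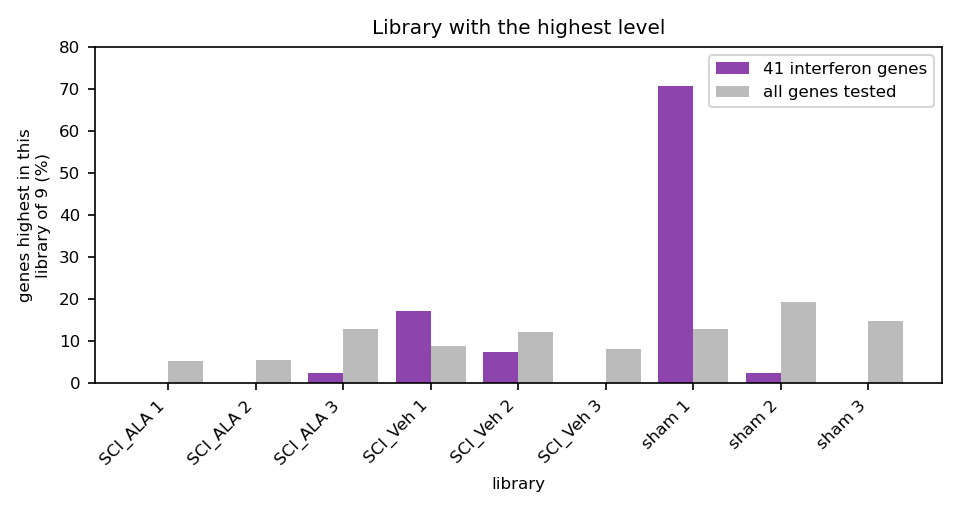
Percentage of genes whose highest level among 9 libraries (vertical axis, %) was in the library named on the horizontal axis, for the 41 interferon genes (purple) and for all genes tested (grey). Sham 1 holds 70.7% of the interferon genes, against 2171 of the 16678 genes tested.

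The spread within sham was wide for these genes. The median range between the highest and lowest library of a group was 0.692 log2 units in SCI_ALA and 0.544 in SCI_Veh, against 1.13 in sham, where 24 of the 41 genes spanned more than 2-fold; 27.8% of all genes tested did so in sham. Over all genes tested the median ranges were 0.467 in SCI_ALA and 0.432 in SCI_Veh, against 0.657 in sham. In SCI_ALA the third library was the highest of its group for 26 of the 41 genes, against 36.8% of all genes tested, and in SCI_Veh the first library was for 31, against 33.4%. Sham 1 also had the lowest mitochondrial share of counts in its group, 8.593% against 15.68% in sham 2 and 12.26% in sham 3, and the highest summed macrophage markers of the 3, 4166 CPM against 3464 and 3046 CPM. Microglia (538.2 CPM), astrocyte (9388 CPM) and endothelial (149.3 CPM) marker sums were likewise the highest of sham in sham 1. Neuron (3301 CPM), erythroid (372.5 CPM) and B and plasma cell (5.51 CPM) sums were the lowest of sham there. Neutrophil markers summed to 175.0 CPM, between the 100.2 and 827.9 CPM of sham 2 and sham 3. The summed markers of T and NK cells were 8.52 CPM in sham 1, against 6.17 and 7.80 CPM in the other sham libraries, and those of plasmacytoid dendritic cells were 84.5 CPM, against 63.2 and 124.1 CPM. The plasmacytoid list did not move as a unit. Of 7 tested in SCI_Veh against sham, 2 were higher (Runx2 and Cd4) and 2 lower (Bcl11a and Pacsin1). Its sum is therefore not a level of that cell type. The part of these measures in the level of sham 1 was not tested.

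**Figure D2:**
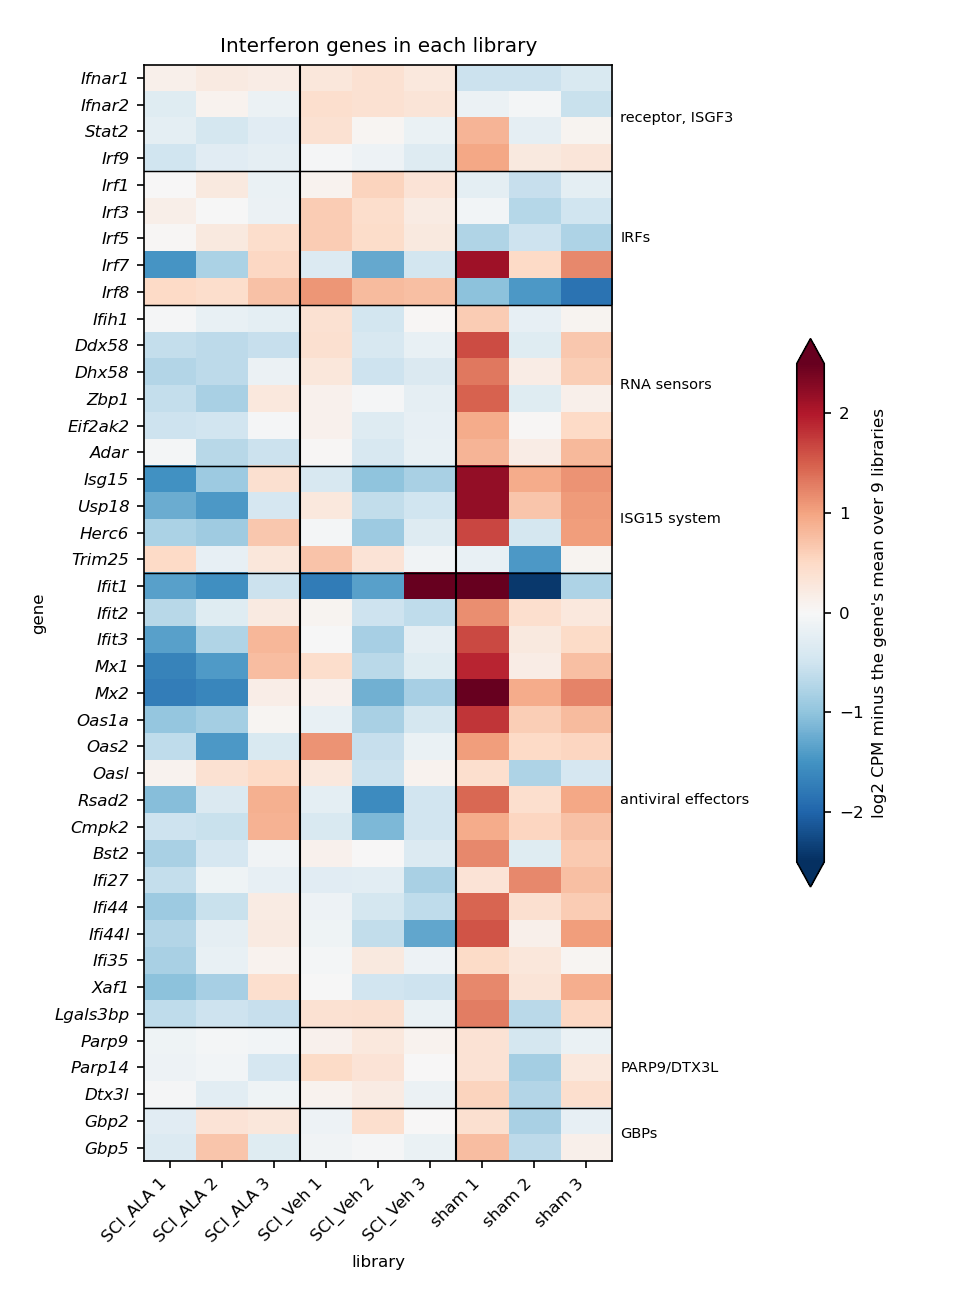
Heat map of the 41 interferon genes (rows, grouped by role) in 9 libraries (columns, from SCI_ALA through SCI_Veh to sham); colour is log2 CPM minus the gene's own mean over the 9 libraries, and the scale ends at the arrowheads. The sham 1 column is red for most antiviral effectors, ISG15 system genes and RNA sensors, and Irf8, Irf5 and Ifnar1 run the other way.

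SCI_Veh was set against sham to ask what the contusion did to the gene set at day 3 under saline. Lower in SCI_Veh were 9 of 17 antiviral effector genes, Isg15 and its protease gene Usp18, and 3 of 6 sensor genes, while both receptor chains and 4 of the 5 IRF genes were higher. In the edgeR quasi-likelihood fit over all genes, with an adjusted p below 0.05, 6 of the 41 genes were higher and 16 were lower, and 19 were not called; of all genes tested 38.0% were called, 19.5% higher and 18.5% lower. The median log2 fold change of the 41 was -0.696, against 0.0029 for all genes tested. The 3 SCI_Veh libraries lay above all 3 sham libraries for 6 genes and below them for 15, against 25.8% and 23.9% of all genes tested. Bulk RNA of this kind cannot tell fewer cells of a type from less RNA per cell.

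The count of lower genes rested in part on single libraries. It was 5 without SCI_Veh 2, 8 without SCI_Veh 3 and 7 without sham 1, all among the 16, and between 12 and 20 without any other library. The median log2 fold change of the 41 was -0.711 without SCI_Veh 2 and -0.601 without SCI_Veh 3, against -0.696 with all libraries. Lower calls over all genes tested were 2221 of 17148 without SCI_Veh 2 and 2569 of 17114 without SCI_Veh 3. With all libraries they were 3089 of 16678. Without sham 1 the median of the 41 was -0.281 and the count of higher genes was 7, while 17.5% of all genes tested were higher and 15.5% lower. Calls that held with each of the 9 libraries left out in turn were those of Ifnar1, Irf3, Irf5 and Irf8 (higher) and of Ifi27, Ifi44, Ifi44l and Oas1a (lower). Leaving out sham 1 turned the sign of 7 genes, Stat2, Ifih1, Zbp1, Ifit1, Lgals3bp, Dtx3l and Gbp5, none of which was called with all libraries.

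**Figure D3:**
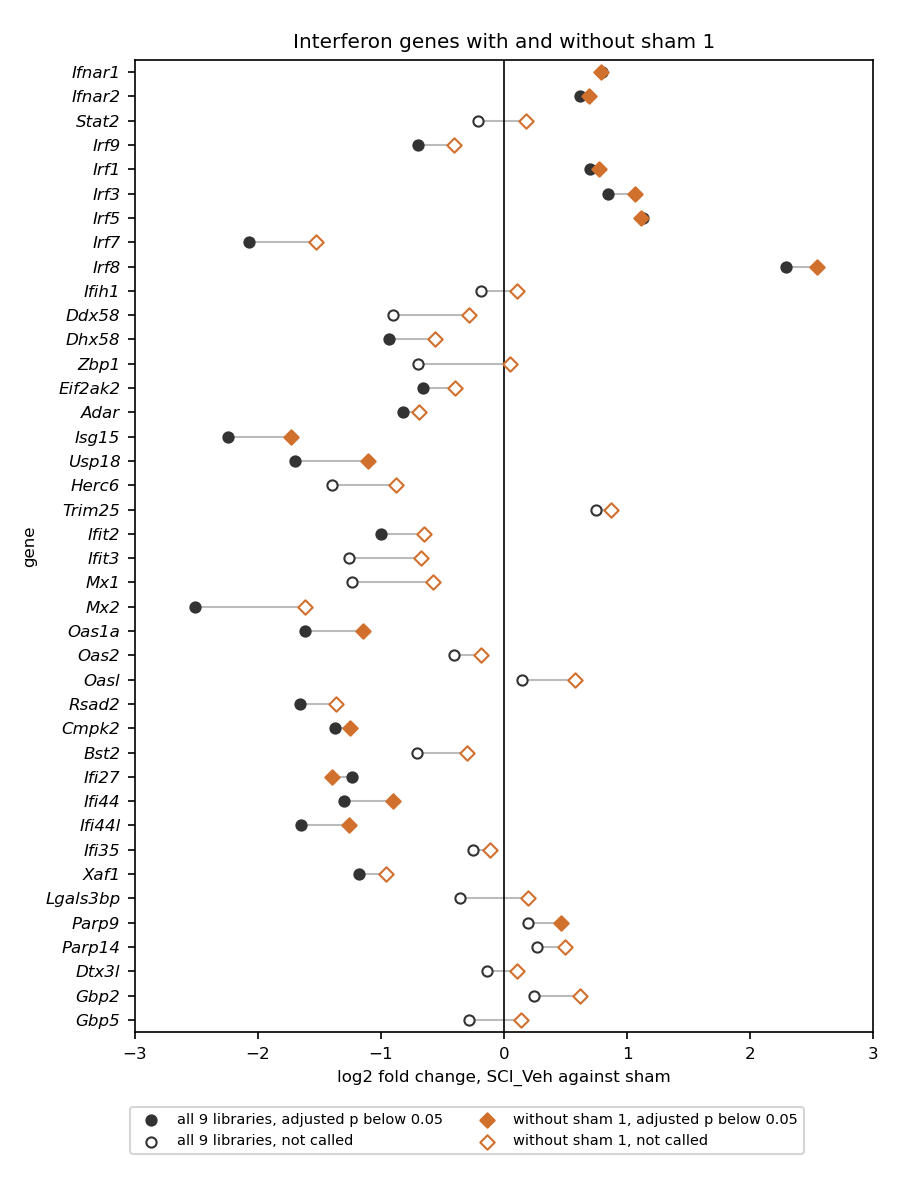
Log2 fold change of SCI_Veh against sham (horizontal axis) for 40 interferon genes, with all 9 libraries (circles) and without sham 1 (diamonds); filled symbols had an adjusted p below 0.05, and Ifit1 is left out. Most points of the lower genes move towards 0 without sham 1, 7 of the 16 stay filled, and the 6 higher genes all stay filled.

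At the receptor, both chains rose. Ifnar1, which encodes the chain that docks the kinase TYK2 (Rnor_6.0 chr11:31640407-31664061, plus strand), had 83.3, 88.6 and 86.6 CPM in SCI_ALA, 92.1, 99.7 and 91.9 CPM in SCI_Veh and 52.1, 52.2 and 58.7 CPM in sham. All 6 injured libraries lay above all 3 sham libraries, and the log2 fold change of SCI_Veh against sham was 0.80 ± 0.13 (SE; 1.74-fold; edgeR adjusted p = 0.000532). Ifnar2, the chain that binds interferon with high affinity, lies close by on the same chromosome (chr11:31539016-31558851, plus strand). It had 12.7, 16.7 and 14.1 CPM in SCI_ALA, 21.0, 20.4 and 19.5 CPM in SCI_Veh and 14.1, 15.04 and 10.5 CPM in sham. All 3 SCI_Veh libraries stood above sham, and of the SCI_ALA libraries SCI_ALA 2 did. Its log2 fold change was 0.62 ± 0.20 (adjusted p = 0.0269), with adjusted p = 0.0662 without SCI_Veh 1, 0.0630 without SCI_Veh 2 and 0.0699 without sham 3.

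Of the transcription factor partners downstream of the receptor, Irf9 fell and Stat2 was not called. Irf9, the DNA-binding part of the complex, had 44.95, 51.7 and 54.3 CPM in SCI_ALA, 61.7, 58.3 and 50.4 CPM in SCI_Veh and 123.2, 74.8 and 78.0 CPM in sham. The injured libraries were all lower than sham, with sham 1 well above the other sham libraries. The log2 fold change of SCI_Veh against sham was -0.70 ± 0.20 (adjusted p = 0.0151), with adjusted p = 0.0684 without SCI_Veh 3 and 0.0680 without sham 1. Stat2 had 62.8 to 90.7 CPM in SCI_Veh and 60.3 to 127.1 CPM in sham, overlapping groups (log2 fold change -0.21 ± 0.24, adjusted p = 0.528).

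The IRF genes split, with 4 of 5 higher. Irf8, a factor of myeloid cell differentiation (chr19:54314865-54336640, plus strand), had 60.5, 58.4 and 71.2 CPM in SCI_ALA, 92.6, 74.2 and 72.3 CPM in SCI_Veh and 21.1, 15.9 and 11.9 CPM in sham. Each injured library exceeded each sham library by more than 2-fold, and the log2 fold change of SCI_Veh against sham, 2.29 ± 0.21 (4.89-fold; adjusted p = 1.38e-05), was the largest rise in the set. Irf5, which acts below Toll-like receptors in macrophages, had 37.3, 43.6 and 49.7 CPM in SCI_ALA, 56.9, 50.4 and 43.3 CPM in SCI_Veh and 21.8, 25.6 and 21.5 CPM in sham (log2 fold change 1.13 ± 0.17 in SCI_Veh against sham, adjusted p = 0.000331). Irf3, the factor that first induces the interferon-beta gene, had 23.98, 21.6 and 19.7 CPM in SCI_ALA, 33.9, 29.5 and 25.2 CPM in SCI_Veh and 20.7, 13.3 and 15.3 CPM in sham. SCI_Veh lay above sham throughout for both genes, and for Irf3 the log2 fold change was 0.85 ± 0.20 (adjusted p = 0.00641). Irf1, induced by interferon gamma and other cytokines, rose by 0.70 ± 0.19 on the log2 scale (adjusted p = 0.0125; 0.0637 without SCI_Veh 2).

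Irf7, itself an interferon target and the amplifier of the type I response, went the other way. It had 35.8, 57.1 and 142.2 CPM in SCI_ALA, 78.4, 40.6 and 72.4 CPM in SCI_Veh and 435.1, 140.9 and 229.8 CPM in sham. SCI_Veh lay below sham in every library, whereas SCI_ALA 3 reached the level of sham 2. The log2 fold change of SCI_Veh against sham was -2.07 ± 0.60 (4.21-fold lower; adjusted p = 0.0284), and the adjusted p was 0.0614, 0.101 and 0.0646 without SCI_Veh 1, 2 and 3, 0.0787 without sham 1 and 0.0551 without sham 3.

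Marker genes of several cell types also differed between SCI_Veh and sham. All 10 phagocytic macrophage markers were higher in SCI_Veh than in sham, with summed levels of 23520 to 30130 CPM in SCI_Veh and 3046 to 4166 CPM in sham. Of 9 homeostatic microglia markers tested, 6 were higher, with summed levels of 979.8 to 1115 CPM in SCI_Veh and 437.3 to 538.2 CPM in sham. All 10 neuron markers were lower, with sums of 1094 to 1694 CPM in SCI_Veh and 3301 to 5365 CPM in sham. Of 8 astrocyte markers 7 were lower, and Gfap was not called (log2 fold change 0.06 ± 0.23, adjusted p = 0.850). Astrocyte sums overlapped, at 5508 to 7773 CPM in SCI_Veh and 6638 to 9388 CPM in sham. Of 12 neutrophil markers 2 were higher and 0 lower, and T and NK cell, B and plasma cell and erythroid markers had 0 calls. Endothelial markers, with 1 higher and 2 lower of 7 tested and Cldn5 listed at 0 counts in every library, summed to 96.2 to 203.5 CPM in SCI_Veh and 82.9 to 149.3 CPM in sham. No neuron or astrocyte marker was at 0 counts in all libraries of this spinal cord tissue. The part of these cell types in the interferon genes was not tested.

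Sensors of nucleic acid and RNA-binding enzymes were lower or not called. Of 6 genes, 3 fell, 0 rose and 3 were not called. Adar, the enzyme that edits adenosine to inosine in double-stranded RNA, had 41.1, 26.2 and 29.3 CPM in SCI_ALA, 43.8, 32.5 and 37.5 CPM in SCI_Veh and 77.0, 48.9 and 74.8 CPM in sham. The groups did not overlap, and the log2 fold change of SCI_Veh against sham was -0.82 ± 0.22 (adjusted p = 0.0119; 0.0570 without SCI_Veh 2 and 0.0501 without sham 1). Dhx58, which encodes the RIG-I-like protein LGP2, had 16.9, 17.8 and 25.3 CPM in SCI_ALA, 34.4, 19.7 and 21.8 CPM in SCI_Veh and 69.9, 31.8 and 43.3 CPM in sham. SCI_Veh 1 exceeded sham 2, and the log2 fold change was -0.94 ± 0.30 (adjusted p = 0.0286; 0.110, 0.0969 and 0.142 without SCI_Veh 2, SCI_Veh 3 and sham 1). Eif2ak2, the double-stranded RNA kinase PKR that halts translation, had 62.9, 65.1 and 88.5 CPM in SCI_ALA, 97.7, 71.9 and 78.4 CPM in SCI_Veh and 171.2, 91.96 and 128.6 CPM in sham. SCI_Veh 1 exceeded sham 2 here too. Its log2 fold change of -0.66 ± 0.23 (adjusted p = 0.0374) had an adjusted p of 0.173 without sham 1, and of 0.0539, 0.132, 0.110 and 0.0706 without SCI_ALA 2, SCI_Veh 2, SCI_Veh 3 and sham 3. The cytosolic RNA receptor genes Ifih1 (MDA5) and Ddx58 (RIG-I) and the Z-form nucleic acid sensor Zbp1 were not called, at log2 fold changes of -0.19 ± 0.25, -0.90 ± 0.39 and -0.70 ± 0.44 (adjusted p = 0.598, 0.0917 and 0.235). Without sham 2, Ddx58 was called lower (-1.27, adjusted p = 0.00667).

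ISG15 is an interferon-induced, ubiquitin-like protein that is attached to other proteins. Its gene Isg15 (chr5:173624310-173626248, minus strand) had 13.5, 20.5 and 51.0 CPM in SCI_ALA, 29.5, 19.2 and 22.1 CPM in SCI_Veh and 177.3, 73.5 and 84.6 CPM in sham. Every injured library was below every sham library, and the log2 fold change of SCI_Veh against sham was -2.25 ± 0.53 (4.74-fold lower; adjusted p = 0.0103; 0.0511 without SCI_Veh 2). Usp18, the protease that removes ISG15 and damps signalling at IFNAR2, had 14.1, 12.4 and 25.1 CPM in SCI_ALA, 40.6, 21.9 and 23.6 CPM in SCI_Veh and 154.0, 54.5 and 70.6 CPM in sham. It too separated the groups, with a log2 fold change of -1.70 ± 0.43 (adjusted p = 0.0122; 0.0583 without SCI_Veh 2). Herc6, an ISG15 ligase gene in mouse, had 4.76, 4.44 and 13.5 CPM in SCI_ALA, 8.11, 4.40 and 6.68 CPM in SCI_Veh and 27.0, 6.17 and 17.4 CPM in sham, with overlapping groups and no call (-1.40 ± 0.55, adjusted p = 0.0679). It was called lower without sham 2 (adjusted p = 0.0159) and without SCI_ALA 3 (0.0336). Trim25, a ubiquitin ligase of the RIG-I pathway, was at 0.75 ± 0.35 (adjusted p = 0.113).

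Of the 17 antiviral effector genes, 9 fell, 0 rose and 8 were not called. Per length, Ifi27 was the most abundant of the 41 genes, at a mean of 1357 FPKM in sham, the deposited scale that divides fragments by gene length and depth. Ifi27 (chr6:127327959-127334428, plus strand), which encodes a small hydrophobic membrane protein, had 413.9, 579.1 and 539.1 CPM in SCI_ALA, 512.3, 518.3 and 358.0 CPM in SCI_Veh and 791.7, 1434.0 and 1049.0 CPM in sham. The groups did not overlap, and here sham 1 was the lowest sham library. Its log2 fold change of SCI_Veh against sham was -1.24 ± 0.24 (2.36-fold lower; adjusted p = 0.00185), and -1.40 without sham 1.

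Oas1a, an oligoadenylate synthetase that activates RNase L, had 20.9, 22.6 and 42.3 CPM in SCI_ALA, 35.8, 23.3 and 30.2 CPM in SCI_Veh and 141.2, 62.8 and 70.4 CPM in sham. Ifi44l had 5.63, 8.12 and 11.2 CPM in SCI_ALA, 8.82, 6.14 and 3.78 CPM in SCI_Veh and 28.7, 10.4 and 19.9 CPM in sham. Both were lower in every SCI_Veh library than in any sham library, at log2 fold changes of -1.62 ± 0.35 (adjusted p = 0.00470) and -1.65 ± 0.41 (adjusted p = 0.00783). The neighbouring gene Ifi44 fell by 1.30 on the log2 scale (SE 0.32, adjusted p = 0.00874), and its group means were 41.5 ± 7.63 CPM in SCI_Veh and 102.3 ± 41.8 CPM in sham (SD, n = 3 each). Reads of Oas1a, of Mx1 and Mx2, of the Ifit genes and of the guanylate-binding protein genes may be shared with close copies in the rat genome, so their counts are uncertain to that extent.

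The largest fall of the called genes was in Mx2, a dynamin-like antiviral GTPase gene. It had 27.9, 30.1 and 104.2 CPM in SCI_ALA, 100.4, 40.2 and 52.2 CPM in SCI_Veh and 703.3, 177.4 and 220.8 CPM in sham. Sham 1 was more than 3-fold above both other sham libraries, and all injured libraries were below all sham libraries. The log2 fold change of SCI_Veh against sham was -2.51 ± 0.78 (5.71-fold lower; adjusted p = 0.0386), and the adjusted p was 0.0535, 0.129 and 0.106 without SCI_Veh 1, 2 and 3 and 0.0947 without sham 1, where the log2 fold change was -1.62. Its paralog Mx1 was not called (-1.23 ± 0.77, adjusted p = 0.249), nor was it without any single library.

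Rsad2, the antiviral radical-SAM enzyme viperin, and Cmpk2, a mitochondrial nucleotide kinase, lie side by side on chromosome 6 (chr6:45655954-45669148, minus strand, and chr6:45683234-45694822, plus strand). Rsad2 averaged 11.5 ± 4.88 CPM in SCI_Veh and 36.2 ± 12.4 CPM in sham, and Cmpk2 averaged 24.8 ± 6.34 CPM in SCI_Veh and 64.1 ± 8.57 CPM in sham (SD, n = 3 each). Both fell, at log2 fold changes of -1.66 ± 0.52 (adjusted p = 0.0312) and -1.37 ± 0.36 (adjusted p = 0.0130), and groups did not overlap for either. Cmpk2 lost its call without SCI_Veh 2 (adjusted p = 0.0545), and Rsad2 lost it without SCI_Veh 2, SCI_Veh 3, sham 1 or sham 3 (0.0909, 0.0632, 0.0897 and 0.0673). Ifit2, a binder of viral RNA, and Xaf1, an antagonist of an apoptosis inhibitor, fell, at log2 fold changes of -1.003 ± 0.29 and -1.18 ± 0.37 (adjusted p = 0.0193 and 0.0249). Ifit2 was not called without SCI_Veh 2, SCI_Veh 3 or sham 1 (0.0737, 0.0754 and 0.0879), nor was Xaf1 without these or sham 3 (0.0849, 0.0823, 0.0920 and 0.0624).

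The other effectors, Ifit1, Ifit3, Mx1, Oas2, Oasl, Bst2, Ifi35 and Lgals3bp, were not called. Ifit3 had a log2 fold change of -1.26 ± 0.60 (adjusted p = 0.136), although its groups did not overlap, and it was called without SCI_ALA 3 (adjusted p = 0.0274). Bst2, which encodes the virus tether tetherin, was at -0.71 ± 0.32 (adjusted p = 0.104; 0.00586 without sham 2, at -1.03). Lgals3bp, a secreted glycoprotein gene, had 181.6, 182.5 and 123.4 CPM in SCI_Veh and 337.5, 87.5 and 198.7 CPM in sham, a range in sham that spanned all SCI_Veh libraries (-0.36 ± 0.38, adjusted p = 0.491; 0.0272 without sham 2).

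Ifit1 was the most uneven gene of the set. It had 12, 10 and 22 counts in SCI_ALA, 9, 12 and 395 counts in SCI_Veh and 2698, 4 and 19 counts in sham. Only SCI_Veh 3 and sham 1 were high, the remaining 7 libraries had 4 to 22 counts, and the gene was not called in any comparison. Ifit2 and Ifit3, which lie beside it (chr1:252894663-252900726 and chr1:252906234-252911382, against chr1:252944103-252946170 for Ifit1, all on the plus strand), had 27.5 and 23.1 CPM in SCI_Veh 3 and did not show a peak there.

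**Figure D4:**
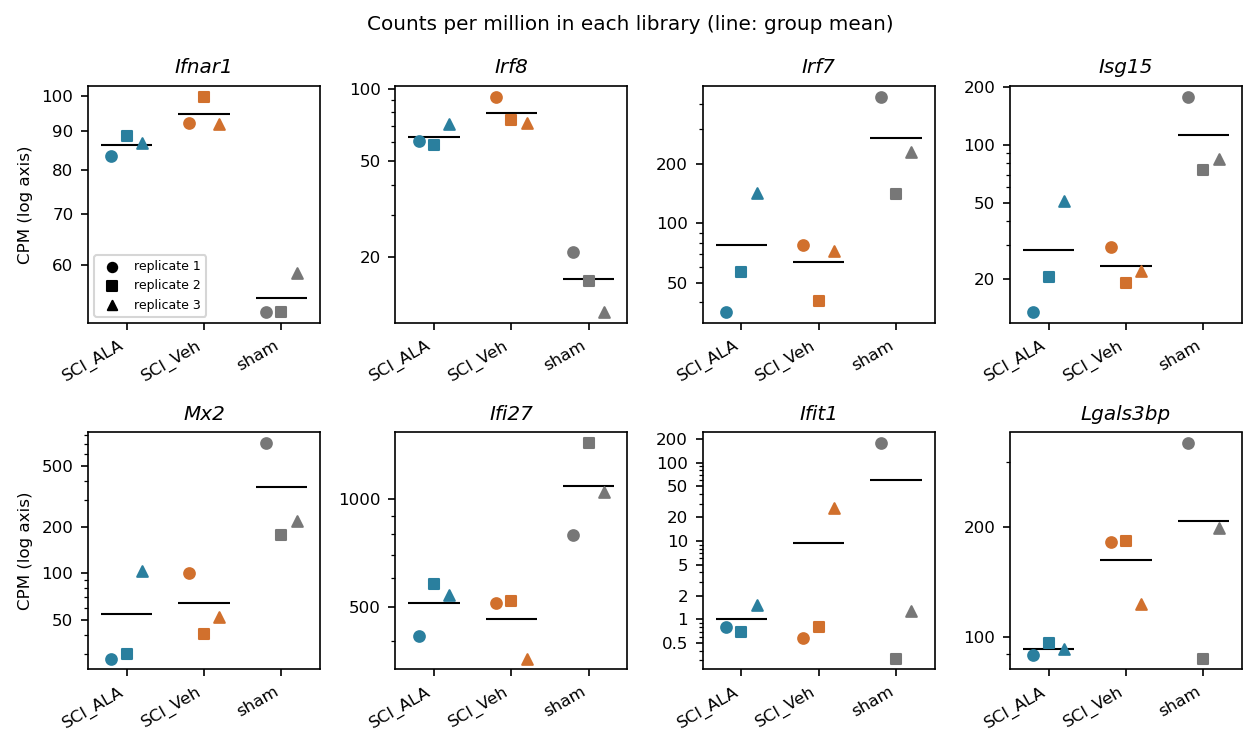
CPM in each library on a log axis (vertical) for 8 interferon genes, by group (horizontal, SCI_ALA, SCI_Veh, sham); symbols mark replicate numbers and lines mark group means. Ifnar1 and Irf8 are higher in all injured libraries than in sham, Isg15, Mx2 and Ifi27 are lower, and Ifit1 is high only in sham 1 and SCI_Veh 3.

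The PARP9 and DTX3L group and the guanylate-binding proteins showed no calls. Parp9 and Dtx3l encode partners of a ubiquitin ligase complex and lie head to head (chr11:67724076-67756799, minus strand, and chr11:67757928-67767622, plus strand). Parp9 had 47.6, 49.8 and 49.0 CPM in SCI_ALA, 55.1, 62.1 and 54.7 CPM in SCI_Veh and 66.2, 38.1 and 46.0 CPM in sham; Dtx3l had 24.2, 20.5 and 22.8 CPM in SCI_ALA, 26.1, 28.3 and 22.4 CPM in SCI_Veh and 36.5, 14.9 and 33.1 CPM in sham. The sham libraries of both genes spanned the injured ones, and log2 fold changes of SCI_Veh against sham were 0.19 ± 0.19 (adjusted p = 0.445) and -0.14 ± 0.27 (adjusted p = 0.723). Parp9 was called higher without sham 1 (0.46, adjusted p = 0.0460). Parp14, an ADP-ribosyltransferase gene, had 24.5, 25.4 and 19.8 CPM in SCI_ALA, 37.3, 33.6 and 26.9 CPM in SCI_Veh and 34.4, 14.8 and 31.9 CPM in sham (0.27 ± 0.27, adjusted p = 0.465). Gbp2 and Gbp5, interferon gamma-inducible GTPase genes, were at 0.25 ± 0.28 and -0.29 ± 0.35 (adjusted p = 0.519 and 0.552). Gbp2 had 67.7, 105.4 and 101.0 CPM in SCI_ALA, 75.7, 110.5 and 83.4 CPM in SCI_Veh and 108.6, 47.1 and 71.4 CPM in sham, and Gbp5 had 12.9, 26.7 and 13.4 CPM in SCI_ALA, 15.6, 16.2 and 14.8 CPM in SCI_Veh and 28.2, 10.5 and 18.1 CPM in sham. Both overlapped between groups, with sham 1 above sham 2 and sham 3.

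The rest of the interferon pathway was measured from lists of related genes. Interferon genes themselves were hardly detected: Ifnb1, Ifna2, Ifna4 and Ifna5 had 0 counts in all 9 libraries, which allows up to 0.191 to 0.216 CPM of the library total, counting error only. Ifng had 3 counts in SCI_ALA 1 and 2 counts in SCI_Veh 3 and 0 elsewhere, and no interferon gene passed the filter. Of 15 receptor and JAK-STAT signalling genes, 12 were higher and 1 lower in SCI_Veh than in sham, against 19.5% and 18.5% of all genes tested. Socs3, a feedback inhibitor of cytokine signalling, rose to 22.0, 30.6 and 31.5 CPM in SCI_Veh, against 3.02, 3.48 and 1.199 CPM in sham (log2 fold change 3.45 ± 0.35, adjusted p = 2.31e-05). The interferon gamma receptor chains Ifngr1 and Ifngr2 rose by 1.37 ± 0.17 and 0.76 ± 0.20 (adjusted p = 0.000115 and 0.0109), and the receptor kinase Tyk2 by 1.40 ± 0.22 (adjusted p = 0.000412), whereas Jak1 was at 0.20 ± 0.16 (adjusted p = 0.355) and the inhibitor gene Socs1 at -0.41 ± 0.39 (adjusted p = 0.434).

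Of 18 tested sensors and adaptors upstream of interferon, 8 were higher and 0 lower, against 19.5% and 18.5% of all genes tested. Tmem173, which encodes the DNA-pathway adaptor STING, had 19.9, 21.2 and 18.7 CPM in SCI_Veh and 10.7, 3.25 and 5.60 CPM in sham (1.61 ± 0.34, adjusted p = 0.00296), and Tlr7, an endosomal RNA receptor gene, rose by 1.23 ± 0.24 (adjusted p = 0.00201). Mavs, the adaptor of RIG-I, and Tlr3 were at 0.00 ± 0.18 and 0.12 ± 0.29 (adjusted p = 0.995 and 0.767). Of 44 other interferon-stimulated genes, 10 were higher and 6 lower, against 19.5% and 18.5% of all genes tested. Their median log2 fold change was -0.159, and the difference from the 41 genes was not tested. The largest rise there was in Ifitm1, a membrane protein gene that restricts virus entry, with 401.7, 514.9 and 387.3 CPM in SCI_Veh, against 21.8, 29.3 and 14.9 CPM in sham (4.31 ± 0.25 in SCI_Veh against sham, adjusted p = 8.72e-07). Ifitm2 and Slfn2 rose by 1.46 ± 0.18 and 1.28 ± 0.16 (adjusted p = 9.34e-05 and 0.000118). Of the 6 other IRF-related genes, 2 were higher and 0 lower, against the same shares of all genes tested.

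SCI_ALA was set against SCI_Veh to ask what α-lipoic acid did in the injured cord. No gene of the set passed the test: 0 of 41 were higher and 0 lower with edgeR at an adjusted p below 0.05, where 0.120% of all genes tested were called, 0.0779% higher and 0.0420% lower. At an unadjusted p below 0.05 there were 3 of the 41, against 12.3% of all genes tested, and DESeq2 also called 0. The median log2 fold change was -0.196, with 28 genes below 0 and 13 above. SCI_ALA lay below SCI_Veh in every library for 9 genes and above it for 0, against 12.2% and 11.6% of all genes tested. Without SCI_ALA 3 the median was -0.385.

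The genes with the smallest p were in several role groups. Ifnar2 had 12.7, 16.7 and 14.1 CPM in SCI_ALA, against 21.0, 20.4 and 19.5 CPM in SCI_Veh, without overlap (-0.49 ± 0.20, adjusted p = 0.349). Oas2, another oligoadenylate synthetase gene, had 3.02, 1.67 and 3.64 CPM in SCI_ALA, against 10.5, 3.14 and 4.25 CPM in SCI_Veh, where the highest value was in SCI_Veh 1 and the groups overlapped (-1.10 ± 0.46, adjusted p = 0.365). Irf3 had 23.98, 21.6 and 19.7 CPM in SCI_ALA, against 33.9, 29.5 and 25.2 CPM in SCI_Veh (-0.44 ± 0.20, adjusted p = 0.402). Lgals3bp had 89.2, 96.3 and 92.7 CPM in SCI_ALA, against 181.6, 182.5 and 123.4 CPM in SCI_Veh (-0.81 ± 0.38, adjusted p = 0.428). For Irf3 and Lgals3bp too each SCI_ALA library was below each SCI_Veh library. Cmpk2 had 26.7, 25.9 and 70.2 CPM in SCI_ALA, against 29.3, 17.6 and 27.5 CPM in SCI_Veh, and its higher mean came from SCI_ALA 3 (0.72 ± 0.36, adjusted p = 0.451; 0.09 without SCI_ALA 3, adjusted p = 0.953).

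SCI_ALA 3 stood above the other treated libraries for some of the genes. Mx1 had 114.4 CPM in SCI_ALA 3, against 20.8 and 24.9 CPM in SCI_ALA 1 and 2, and Isg15 had 51.0 CPM, against 13.5 and 20.5 CPM. Leaving it out turned the sign of 8 genes in SCI_ALA against SCI_Veh, Irf7, Isg15, Herc6, Ifit2, Ifit3, Rsad2, Ifi44 and Gbp2, and none was called in either fit. This library also had the strongest relation of counts to gene length (correlation -0.46, against -0.285 and 0.0328 in the other SCI_ALA libraries) and the highest summed erythroid markers of the group (2932 CPM, against 834.6 and 1610 CPM). Their part in its interferon gene levels was not tested.

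Macrophage and microglia marker sums were lower in SCI_ALA libraries than in SCI_Veh libraries, at 12670 to 17160 CPM against 23520 to 30130 CPM for macrophages and 620.7 to 813.7 CPM against 979.8 to 1115 CPM for microglia, with 0 of 10 and 0 of 9 markers called. T and NK cell markers summed to 27.8 to 28.4 CPM in SCI_ALA and 6.18 to 18.6 CPM in SCI_Veh, with 0 of 7 called. Irf8 had 58.4 to 71.2 CPM in SCI_ALA and 72.3 to 92.6 CPM in SCI_Veh without overlap, and was not called (-0.33 ± 0.20, adjusted p = 0.526). The part of these cell types in the level of Irf8 or of the other interferon genes was not tested. The related lists gave 0 calls as well, of 44 other interferon-stimulated genes, 15 receptor and JAK-STAT genes, 6 IRF-related genes and 18 sensors and adaptors.

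**Figure D5:**
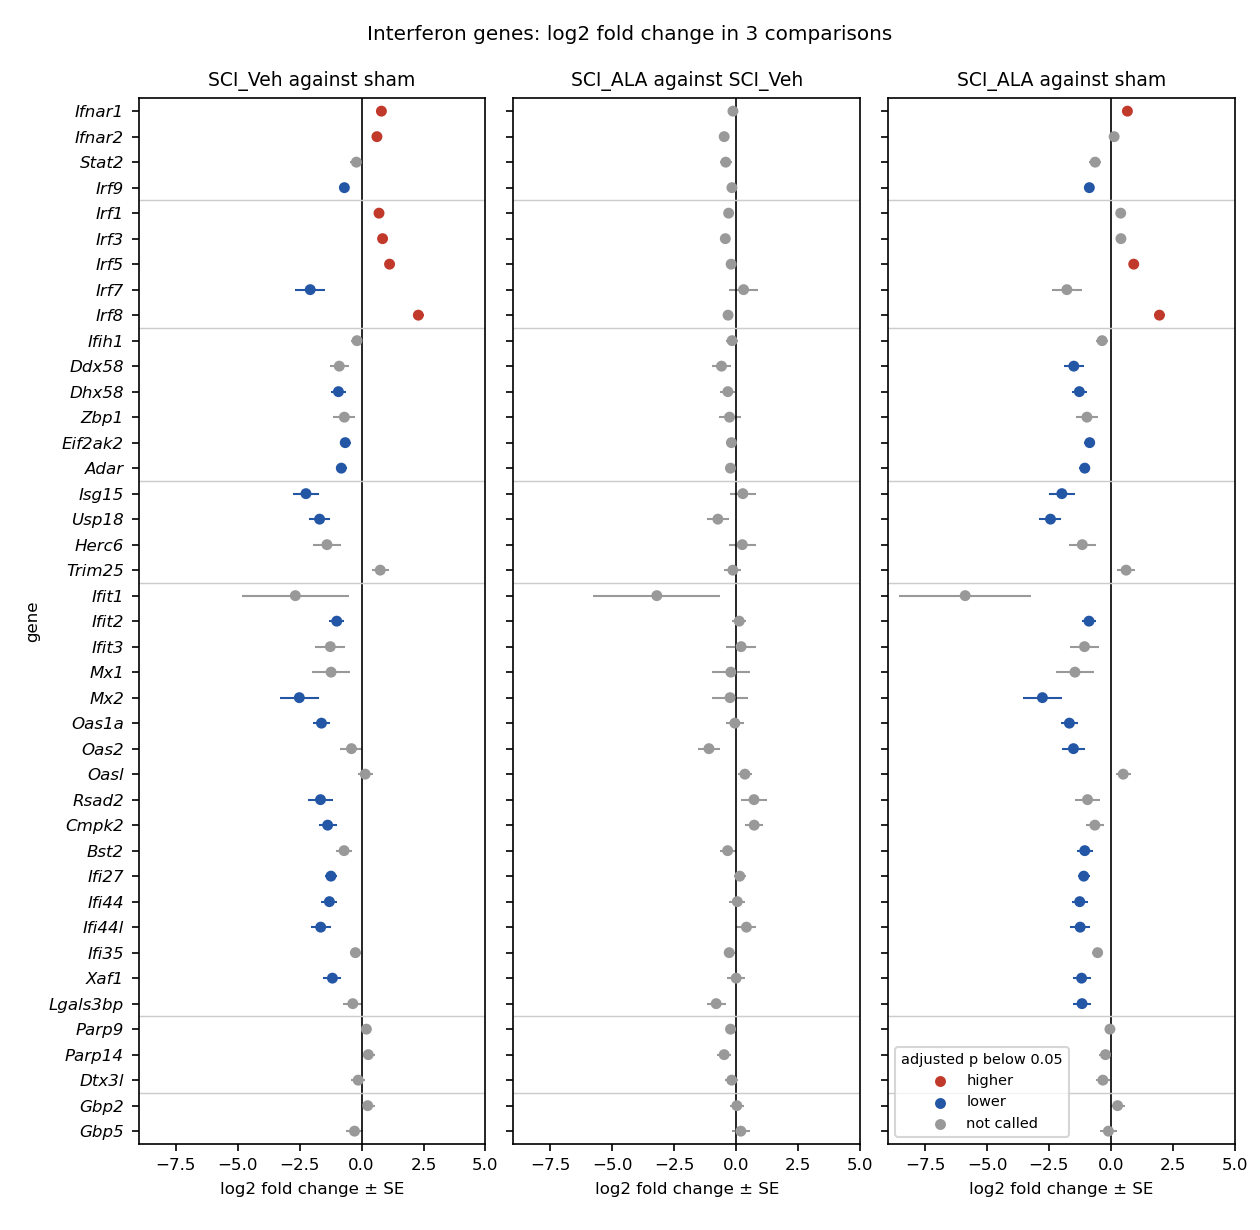
Log2 fold change ± SE (horizontal axes) of the 41 interferon genes in SCI_Veh against sham, SCI_ALA against SCI_Veh and SCI_ALA against sham, from edgeR with all 9 libraries; red and blue are higher and lower at an adjusted p below 0.05, grey is not called. The middle panel has no coloured point, against 22 in the left and 20 in the right panel.

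SCI_ALA against sham, which shares its libraries with both other comparisons, asked how treated injured cord differed from uninjured cord. Of the 41 genes, 3 were higher and 17 lower, where 33.1% of all genes tested were called, 17.3% higher and 15.8% lower, and the median was -0.943. The higher genes were Ifnar1 (0.67 ± 0.13, adjusted p = 0.00206), Irf5 (0.92 ± 0.17, adjusted p = 0.00153) and Irf8 (1.96 ± 0.21, adjusted p = 4.84e-05), and they kept the call without any single library. Groups did not overlap for 4 higher and 14 lower genes, against 23.4% and 22.4% of all genes tested.

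The lower genes were Irf9, Ddx58, Dhx58, Eif2ak2, Adar, Isg15, Usp18, Ifit2, Mx2, Oas1a, Oas2, Bst2, Ifi27, Ifi44, Ifi44l, Xaf1 and Lgals3bp. The count was 9 without SCI_ALA 1, 7 without SCI_ALA 2 and 8 without sham 1, and 5 genes, with Irf3 and Oasl added (adjusted p = 0.0428 and 0.0252), were higher without sham 1. The median of the 41 was -0.758, -0.827 and -0.534 without SCI_ALA 1, SCI_ALA 2 and sham 1 in turn, against -0.943 with all libraries. In these fits 12.8%, 10.5% and 12.3% of all genes tested were lower, against 15.8% with all libraries, and without sham 1 14.9% were higher. Adar, Dhx58, Ifi27, Ifi44, Irf9, Oas1a and Usp18 were lower whichever single library was left out. Isg15 lost the call without SCI_ALA 2 (adjusted p = 0.0667). Without SCI_ALA 1, SCI_ALA 2 and sham 1 in turn, the adjusted p was 0.0525, 0.0590 and 0.0609 for Eif2ak2, 0.129, 0.111 and 0.169 for Ifit2, 0.0911, 0.0917 and 0.0719 for Mx2, and 0.0550, 0.0972 and 0.0849 for Oas2. Ddx58 missed the threshold without SCI_ALA 3 or sham 1 (0.0510 and 0.0672) and just missed it without SCI_ALA 2. Bst2, Ifi44l, Xaf1 and Lgals3bp were called although their groups overlapped, and each lost the call without SCI_ALA 1 (0.102, 0.116, 0.0926 and 0.119) and without sham 1 (0.118, 0.151, 0.101 and 0.157), among other libraries. Usp18 fell by 2.44 ± 0.44 on the log2 scale (5.42-fold; adjusted p = 0.00266) and Oas1a by 1.68 ± 0.35 (adjusted p = 0.00463). Irf7, called in SCI_Veh, was at -1.78 ± 0.60 here (adjusted p = 0.0533), and at -2.53 without SCI_ALA 3 (adjusted p = 0.00900). Rsad2 and Cmpk2, also called in SCI_Veh, were at -0.94 ± 0.51 and -0.65 ± 0.36 (adjusted p = 0.185 and 0.190), and at -1.67 and -1.28 without SCI_ALA 3 (adjusted p = 0.0185 and 0.00305). Macrophage markers were higher in SCI_ALA than in sham for 9 of 10 tested, with sums of 12670 to 17160 CPM in SCI_ALA and 3046 to 4166 CPM in sham. All 10 neuron markers were lower, with sums of 1481 to 2036 CPM in SCI_ALA and 3301 to 5365 CPM in sham, and so were 7 of 8 astrocyte markers, with sums of 8317 to 8740 CPM in SCI_ALA and 6638 to 9388 CPM in sham. Of the microglia markers 3 of 9 were higher and 2 lower, and T and NK cell markers were higher for 6 of 7 tested, with sums of 27.8 to 28.4 CPM in SCI_ALA and 6.17 to 8.52 CPM in sham. The part of these cell types in the interferon genes was not tested.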

How the data were processed

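RNA from spinal cord was sequenced in 9 libraries, 3 per group. The authors deposited whole-number counts per gene and FPKM values per gene. The submitters' processing notes name HISAT2 2.0.5, featureCounts 1.5.0-p3 and DESeq2 1.20.0 and the builds Rnor_6.0 and rn6; a strand setting and filters are not given in the sources used here. Totals were 13857771 to 15736132 counts per library, and replicates differed by more than sampling noise in every pair (19.06 to 69.32 for chi-square over its degrees of freedom). These totals set the counting error of low genes.

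Counts were analysed with edgeR 4.0.16 and limma 3.58.1 in R 4.3.3. Filtering by group (minimum count 10, minimum total 15) left 16678 genes, and all 41 interferon genes passed. Libraries were scaled by TMM (factors 0.8624 to 1.078), and a robust quasi-likelihood model with group means used all 9 libraries. A call needed an adjusted p (Benjamini-Hochberg, over all genes tested) below 0.05; the SE is the log2 fold change divided by the root of the F statistic. The procedure was tested on simulated data. Levels are TMM-scaled CPM. The 41 genes, the related lists and the cell type lists were chosen with earlier results of these data known. Values in every library are given for the 3 genes per role with the smallest p in SCI_Veh against sham and the 5 with the smallest p in SCI_ALA against SCI_Veh; Irf7, Mx2, Ifit1 and Mx1 were shown in addition after their values were seen, as were the single values of Stat2, Ifit2, Ifit3 and Ifi44. Alternatives changed the scaling, the filter, the fold minimum, the test (DESeq2 1.42.0, or limma on log2(FPKM + 1) and log2(FPKM + 0.1)), a gene length correction (loess, span 0.5), the replicate block and the libraries used. Group and replicate were read from each title. One gene of the receptor and signalling list is not reported here.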

Additional observations from a re-analysis of the deposited data

How the results depend on the processing

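No gene of the 41 was called in SCI_ALA against SCI_Veh under any alternative run, and no called gene changed its sign. RLE scaling, library totals, leaving out mitochondrial and hemoglobin genes, both count filters, DESeq2, limma on FPKM, a fit without robust estimation, the gene length correction and the 2-group fits kept each count of higher or lower genes within 1.5 times its value. A fold minimum of 2 left 2 higher genes in SCI_Veh against sham and 1 in SCI_ALA against sham. Of all 16678 genes tested, 1922 and 1777 were then higher. Without sham 2 and SCI_ALA 3 together, SCI_Veh against sham had 22 lower genes, including all 16, where 2915 of all 16934 genes tested were lower. SCI_ALA against sham then had 27, including all 17, where 1849 of 16934 were lower. Leaving out 1 library at a time gave 4 to 7 higher and 5 to 20 lower genes in SCI_Veh against sham, 0 to 0 in SCI_ALA against SCI_Veh, and 3 to 5 higher and 7 to 23 lower in SCI_ALA against sham; the cause was not tested.

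Deviations from the group mean correlated at -0.0855 to 0.18 between same-numbered libraries. Differently numbered libraries were not compared, so these values cannot decide whether the replicate numbers pair the samples. A replicate block gave 6 higher and 17 lower genes in SCI_Veh against sham, where 3209 and 3007 of all 16678 genes tested were called. It gave 0 and 0 in SCI_ALA against SCI_Veh, where 0 of all genes tested were called. In SCI_ALA against sham it gave 3 higher and 15 lower, where 2824 and 2539 of all genes tested were called. On log2(FPKM + 1) the mean level of the 41 genes in sham 1 was 0.8585 above that of the other sham libraries, against 0.9642 on log2 CPM. With only the 150 bases before the start, 48.4% of the promoters held the response element, against 2.05% of all. Single libraries were not tested as outliers within their groups of 3.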
